A study of Mus musculus with 4 samples.

Results

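The serine and asparagine synthesis stress genes are 10 genes followed by symbol through a deposited table of 26026 genes: Phgdh, Psat1, Psph, Shmt1, Shmt2, Mthfd2, Asns, Atf4, Chac1 and Trib3. All 10 were found. The data are messenger RNA levels from mouse bone marrow cells cultured with Flt3 ligand (100 ng/mL, medium renewed on day 3), a cytokine under which marrow progenitors give rise to dendritic cells. Cells were wild type or Nfkb1-/-, each described as C57/B16, and were taken at day 3 or day 5. Nfkb1 encodes p105 and its processed form p50, a subunit of the transcription factor NF-kB. Each group, a genotype at a day, was 1 library (4 in all), so no difference here has a replicate check. How many animals or cultures stand behind a library is not given in the sources used here, and the cultures were sequenced in bulk.

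These genes belong to a stretch of metabolism that supplies amino acids and single carbon units to growing cells. PHGDH, PSAT1 and PSPH carry out the successive steps that turn a glycolytic intermediate into serine. SHMT1 in the cytosol and SHMT2 in mitochondria split serine into glycine and a carbon unit carried by folate, and MTHFD2 oxidises that unit in mitochondria for use in nucleotide synthesis. ASNS makes asparagine from aspartate and glutamine. ATF4 is the transcription factor of the integrated stress response. It is made when phosphorylation of eIF2 slows general translation, so its protein is set in large part at translation and its messenger RNA need not follow it. CHAC1, which breaks down glutathione, and TRIB3, a pseudokinase that restrains ATF4, are well-known products of that response. In blood cells this metabolism is known to accompany proliferation.

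ATF4 binds, with C/EBP partners, to an element of the form TGATGNAA. RefSeq promoter windows of the GRCm38.p6 build (250 bases before to 50 after a transcript start) were at hand for all 10 genes, and were searched on both strands. The element was in the windows of 3 of the 10, Asns, Chac1 and Trib3, against 3.97% of all 32851 windows and 4.51% of all genes with a window. Among genes that average 1 RPKM or more the share was 2.82%. Of the 10 genes 8 reached this average, and of these only Asns held the element. It was also in 10 of 28 other genes described as ATF4 targets and 5 of 13 cytosolic aminoacyl tRNA synthetases with a window. Of the folate one-carbon genes 0 of 19 held it, and of the amino acid transporters 2 of 16. The stretches before the start of Asns and Chac1 are shown because both hold the element and Chac1 was low throughout, and that of Phgdh because it was higher in the knockout and holds no match. Capitals mark the element.
Asns, 150 bases up to the start, chr6:7693210-7693359, minus strand: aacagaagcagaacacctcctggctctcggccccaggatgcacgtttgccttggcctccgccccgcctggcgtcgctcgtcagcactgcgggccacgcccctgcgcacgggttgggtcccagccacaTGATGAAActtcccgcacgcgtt
Chac1, from 250 to 100 bases before the start, chr2:119350992-119351141, plus strand: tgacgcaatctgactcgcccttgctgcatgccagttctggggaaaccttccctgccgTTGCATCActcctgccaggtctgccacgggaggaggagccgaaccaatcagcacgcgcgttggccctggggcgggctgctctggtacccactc
Phgdh, 150 bases up to the start, chr3:98339970-98340119, minus strand: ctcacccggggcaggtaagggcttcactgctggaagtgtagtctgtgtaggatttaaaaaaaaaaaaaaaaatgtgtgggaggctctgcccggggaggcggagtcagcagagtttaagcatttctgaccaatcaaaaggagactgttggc
The match in Asns began 23 bases before the start and that in Chac1, read on the other strand, 193 bases before it. In Trib3 the letters TTACATCA, also the other strand, began 14 bases past the start. The narrower form TGATGCAA, a subset of the element, was in Chac1 alone, against 0.895% of all windows and 1.03% of all genes with a window. The E-box CACGTG was in 0 of the 10 genes' windows (7.15% of all windows, 8.09% of all genes with a window). The NF-kB consensus was likewise in 0 (8.46% of all windows, 9.55% of all genes with a window). With 10 genes, 0 is near these shares. A match describes letters in a window and is not a measured binding site.

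Values are RPKM, read counts scaled to transcript length and library total, so levels can be set side by side between genes. Library totals recovered from the RPKM steps ran from 15255070 to 16215214 reads. Intervals in parentheses after a ratio are exact 95% intervals from the recovered reads (Clopper-Pearson for a ratio of libraries) and cover counting error only. Nfkb1 itself had 74.8 (wild type) and 56.0 RPKM (knockout) at day 3 and 114 and 64.7 RPKM at day 5, so it was lower but present in the libraries labelled knockout. Dendritic markers were found in every library, with the 20 genes of that list summing to 3450 and 5380 RPKM for wild type at day 3 and day 5, and to 2070 and 2280 RPKM for the knockout. Most of each sum came from Cd74, H2-Aa, H2-Ab1 and H2-Eb1. Some others were low, such as Zbtb46 and Xcr1 at 0.575 and 1.34 RPKM in the knockout at day 3. Of the 20 genes, 3 at day 3 and 1 at day 5 were higher in the knockout. Their median differences were -0.59 and -1.36 on the log2(RPKM + 1) scale. Of 11786 genes that average 1 RPKM or more, 7847 and 6040 were higher. Of the marker lists the late neutrophil one had the highest sum in every library except the knockout at day 5. Its 14 genes summed to 34500 and 24300 RPKM in wild type and knockout at day 3, and to 14000 and 3030 RPKM at day 5. All 14 were lower in the knockout at both days, with median differences of -0.58 and -2.20 on the log2(RPKM + 1) scale. The 11 monocyte and macrophage markers summed to 5980 and 8210 RPKM at day 3 and to 5540 and 7100 RPKM at day 5, again wild type first. Most of each sum was Lyz2, at 4721 and 6309 RPKM at day 3 and 4400 and 5383 RPKM at day 5. Of the 11 markers 8 were higher in the knockout at each day, with median differences of 0.55 and 0.48. The largest rises at day 5 were those of Marco, by 1.78 and 2.95 at day 3 and day 5, Cd14, by 0.89 and 1.37, and Ly6c2, by 1.03 and 1.04. Adgre1, Mrc1 and Cd68 were lower at both days, Adgre1 by -0.48 and -1.07. The other 8 marker lists (progenitor, megakaryocyte, erythroid, B cell, T or NK cell, plasmacytoid, primary granule, mast cell or basophil) had median genotype differences between -1.59 and 0.23 at day 3 and between -1.71 and -0.08 at day 5. No marker stood at the lowest value of 1 read in all libraries. In such bulk samples fewer cells of a type and less RNA per cell cannot be told apart, and the part of this shift in the results below was not tested.

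Of the genes of serine synthesis, Phgdh and Psat1 were higher in the knockout at both days beyond counting error, and Psph at day 5. Of these 3 genes only Phgdh, at day 5, was past the size rule given below. Phgdh (NM_016966), the first enzyme of the pathway, stood at 15.6 and 18.3 RPKM in the wild-type libraries of day 3 and day 5, and at 28.8 and 40.9 RPKM in the knockout libraries. Both knockout libraries were above both wild-type libraries. The knockout thus exceeded wild type 1.85 times (1.65 to 2.08) at day 3 and 2.24 times (2.02 to 2.48) at day 5. Psat1 (NM_177420), the transaminase of the second step, followed the same order of libraries, at 18.3, 25.3, 33.0 and 46.6 RPKM. Its genotype ratio was alike at the days, 1.80 (1.63 to 1.99) and 1.84 (1.70 to 2.00). Psph (NM_133900), the phosphatase of the last step, was the lowest of the pathway at 4.52 RPKM in both wild-type libraries, with 5.70 and 6.17 RPKM in those of the knockout. Its ratio was 1.26 (0.973 to 1.64) at day 3, an interval that includes 1, and 1.36 (1.06 to 1.76) at day 5, on 106 to 146 reads per library. None of the neighbouring levels in the order of its 4 libraries were apart beyond counting error. The level of Phgdh relative to Psph was 3.44 and 4.04 in wild type at day 3 and day 5, and 5.05 and 6.63 in the knockout.

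**Figure D1:**
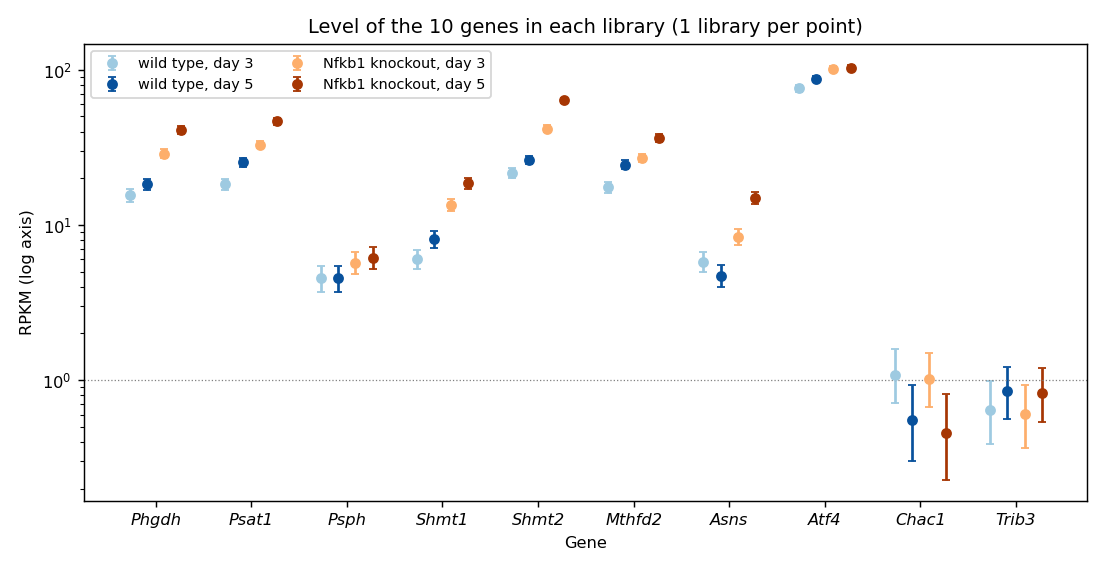
Level of each of the 10 genes in RPKM (log axis) in the 4 libraries, 1 point per library, with exact 95% Poisson intervals of the recovered reads (counting error only). For Phgdh, Psat1, Psph, Shmt1, Shmt2, Mthfd2, Asns and Atf4 both knockout points lie above both wild-type points, and Chac1 and Trib3 lie around the dotted line at 1 RPKM.

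Both serine hydroxymethyltransferases were higher in the knockout, and by similar amounts. Shmt1 (NM_009171), the cytosolic enzyme, had 6.00 and 8.08 RPKM at day 3 and day 5 in the wild-type libraries, and 13.5 and 18.6 RPKM in those of the knockout. These levels gave genotype ratios of 2.25 (1.89 to 2.67) and 2.31 (1.99 to 2.67). The mitochondrial gene Shmt2 (NM_028230) was the most abundant enzyme gene of the set, with 21.5 and 26.2 RPKM for wild type, and 41.6 and 63.5 RPKM for the knockout. The knockout libraries again lay above both wild-type libraries, with ratios of 1.93 (1.77 to 2.11) and 2.42 (2.25 to 2.62). The mitochondrial form remained 3.09 to 3.59 times as abundant as the cytosolic one in all 4 libraries. Mthfd2 (NM_008638), the mitochondrial folate dehydrogenase, differed less, with 17.5 and 24.5 RPKM for wild type, and 27.0 and 36.3 RPKM for the knockout. Its genotype ratios were 1.54 (1.39 to 1.72) and 1.48 (1.35 to 1.62). The knockout at day 3 and wild type at day 5 were nearly level for Mthfd2, with a ratio of 1.10 (1.002 to 1.21). In the GRCm38 annotation exons of Psph overlap Cct6a, those of Shmt1 overlap Smcr8 and those of Shmt2 overlap Ndufa4l2, each on the opposite strand. Whether the counting used strand is not given in the sources used here, so some reads of these genes may belong to the partner. Phgdh has a pseudogene, Phgdh-ps1, with which it could share reads.

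Asns (NM_012055), the asparagine synthetase gene, showed the largest genotype ratio among the 10 genes, at day 5. At day 3 its levels were 5.79 RPKM (wild type) and 8.37 RPKM (knockout), and at day 5 they were 4.72 and 14.9 RPKM. The knockout library at day 5 was well above the other 3, while wild type at day 3 and day 5 were not apart beyond counting error (ratio 1.23, 0.980 to 1.54). The genotype ratio went from 1.45 (1.19 to 1.76) to 3.17 (2.63 to 3.84) between the days, on 173, 266, 149 and 451 reads. Of 11786 genes that average 1 RPKM or more, 40 had a larger genotype difference than Asns at day 5, and 1540 at day 3.

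The stress factor differed less between genotypes than most of the enzyme genes, and Chac1 and Trib3 were low in all libraries. Atf4 (NM_001287180) was the most abundant of the 10 genes, with 75.9 and 87.8 RPKM (wild type, day 3 and day 5), and 101 and 103 RPKM (knockout). As ratios, its libraries lay closer together than those of each enzyme other than Psph, which spread about as much. The genotype ratios of Atf4 were 1.33 (1.25 to 1.42) at day 3 and 1.18 (1.11 to 1.25) at day 5. On the log2(RPKM + 1) scale its day 3 difference was 0.41, and 0.24 after the median-ratio rescaling described below. Chac1 (NM_026929) was near 1 RPKM or below throughout, with 1.09 (wild type) and 1.02 RPKM (knockout) at day 3, then 0.554 and 0.455 RPKM. These rest on 26, 26, 14 and 11 reads, and the ratios were 0.941 (0.525 to 1.69) and 0.822 (0.338 to 1.95). Trib3 (NM_175093) was as low, at 0.639 and 0.601 RPKM at day 3 and 0.847 and 0.823 RPKM at day 5, wild type first. Its ratios were 0.941 (0.480 to 1.84) and 0.972 (0.547 to 1.72), on 20 to 28 reads. At this depth a genotype difference of Chac1 or Trib3 was not detectable, with upper bounds of the ratio between 1.69 and 1.95. These bounds are above the genotype ratios of Mthfd2 and Psph and that of Asns at day 3 (1.45), so a contrast with those is not shown. Psat1, at 1.80 and 1.84, was below the Trib3 bound at day 3 and the Chac1 bound at day 5. Contrasts with the other enzymes were not tested.

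**Figure D2:**
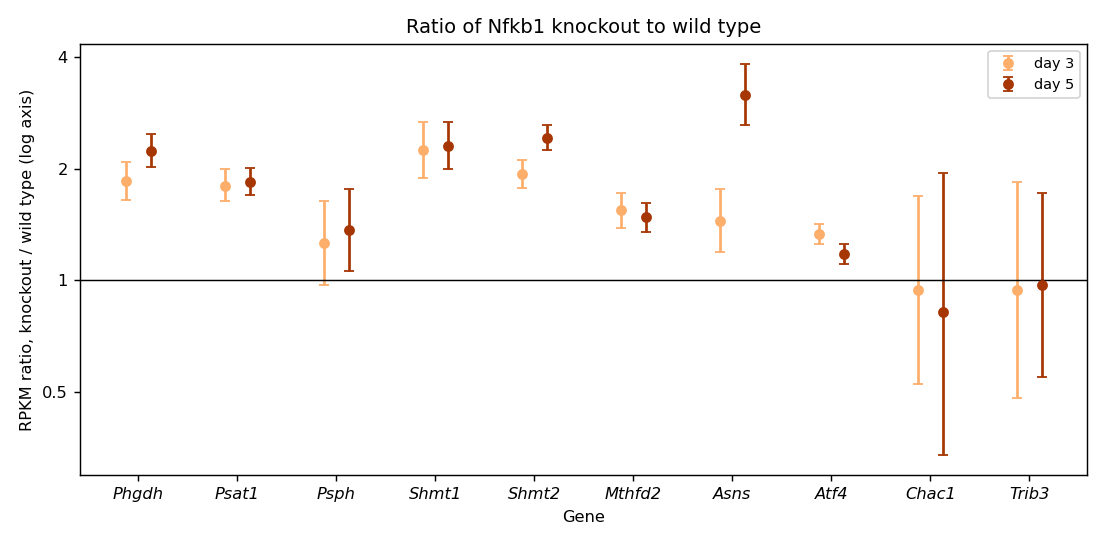
Ratio of RPKM in the Nfkb1 knockout to that in wild type (log axis) for each gene at day 3 and day 5, with exact 95% intervals that cover counting error only. Shmt1, Shmt2, Phgdh and Psat1 lie between 1.80 and 2.42 at both days, Asns moves from 1.45 to 3.17, and the intervals of Chac1 and Trib3 span 1 at both days.

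Differences below are on the log2(RPKM + 1) scale, which understates the change of low genes, and a gene was called past a size rule at an absolute difference of at least 1. It covered 11786 genes whose average over the 4 libraries reached 1 RPKM. Of the 10 genes 8 passed that filter, each with at least 4.52 RPKM in every library, and Chac1 and Trib3 did not. At day 3, 1 of the 8 was past the rule upward, Shmt1 at 1.05, where 0.976% of all genes were, and 0 were past it downward (0.882% of all genes). At day 5, 4 of the 8 were past it upward, Asns at 1.48, Shmt2 at 1.25, Phgdh at 1.12 and Shmt1 at 1.11 (2 of the 4 with a pseudocount of 5 RPKM), where 1.16% of all genes were, and again 0 downward (3.22% of all genes). The median of the 8 was 0.71 at day 3 and 0.99 at day 5, beside 0.13 and 0.01 for all genes. All 8 had both knockout libraries above both wild-type libraries, as did 27.4% of all genes. Under rescaling of the libraries by their median ratio, which moved the median of all genes at day 3 from 0.13 to -0.02, Shmt1 no longer passed at day 3 (0.90), and the median of the 8 there became 0.55.

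An additive limma fit of genotype and day over the 4 libraries served as support. Its error combines how the genotype effect of a gene varies from day 3 to day 5 (1 residual degree of freedom) with a variance shared across genes (3.75 prior degrees of freedom), so the standard errors rest mostly on the latter. It called 0 of 11786 genes at a Benjamini-Hochberg adjusted p under 0.05 (0.0% higher and 0.0% lower), with 2278 genes at an unadjusted p under 0.05. With an intensity trend the same fit called 11 genes higher and 8 lower, and 0 of the 8 members tested. Shmt1 and Shmt2 had genotype differences of 1.08 (SE 0.148) and 1.08 (SE 0.162), each with a limma adjusted p of 0.0819. Phgdh differed by 0.98 (SE 0.158, limma adjusted p 0.0855) and Psat1 by 0.84 (SE 0.147, limma adjusted p 0.09999). For Mthfd2, Asns, Psph and Atf4 the limma adjusted p was 0.146, 0.150, 0.301 and 0.315. None of the 8 tested genes passed, and Chac1 and Trib3 were not in the fit.

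Phgdh, Psat1, Shmt1, Shmt2 and Mthfd2 were higher at day 5 than at day 3 in both genotypes, beyond counting error as deposited and by less than the size rule. Psph was not apart beyond counting error in either genotype, and Asns was higher at day 5 in the knockout but not in wild type. In wild type 0 of the 8 genes were past the rule (1.8% of all genes higher, 2.05% lower), with a median of 0.25 beside 0.16 for all genes (0.08 beside 0.01 after rescaling by the median ratio). The log2 differences of Psat1, Mthfd2, Shmt2, Phgdh and Atf4 in wild type were then 0.28, 0.30, 0.11, 0.06 and 0.04, in place of 0.44, 0.46, 0.27, 0.22 and 0.21. Psat1 was 1.38 (1.24 to 1.53) times, Mthfd2 1.40 (1.26 to 1.56) times and Shmt1 1.35 (1.11 to 1.63) times as high at day 5. Shmt2 followed at 1.22 (1.11 to 1.34), Phgdh at 1.17 (1.03 to 1.33) and Atf4 at 1.16 (1.08 to 1.23). Psph was level, at 1.00 (0.760 to 1.32), with a sign that turns under rescaling, and Asns was at 0.815 (0.650 to 1.02). In the knockout 0 of the 8 were past the rule as well (0.594% of all genes higher, 3.01% lower), with a median of 0.46 beside 0.04 for all genes. There Asns was 1.79 (1.53 to 2.09) times as high at day 5, Shmt2 1.52 (1.43 to 1.63) times and Phgdh 1.42 (1.30 to 1.55) times. Psat1 was at 1.41 (1.31 to 1.53), Shmt1 at 1.38 (1.22 to 1.57) and Mthfd2 at 1.34 (1.23 to 1.47). Atf4 and Psph in the knockout had intervals that include 1, at 1.02 (0.966 to 1.08) and 1.08 (0.853 to 1.37). Chac1 was lower at day 5 in the knockout, at 0.446 (0.199 to 0.933), and in wild type at 0.510 (0.246 to 1.01), while Trib3 was at 1.33 (0.720 to 2.48) in wild type and 1.37 (0.735 to 2.59) in the knockout. The genotype and day comparisons share libraries and are not independent of each other.

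**Figure D3:**
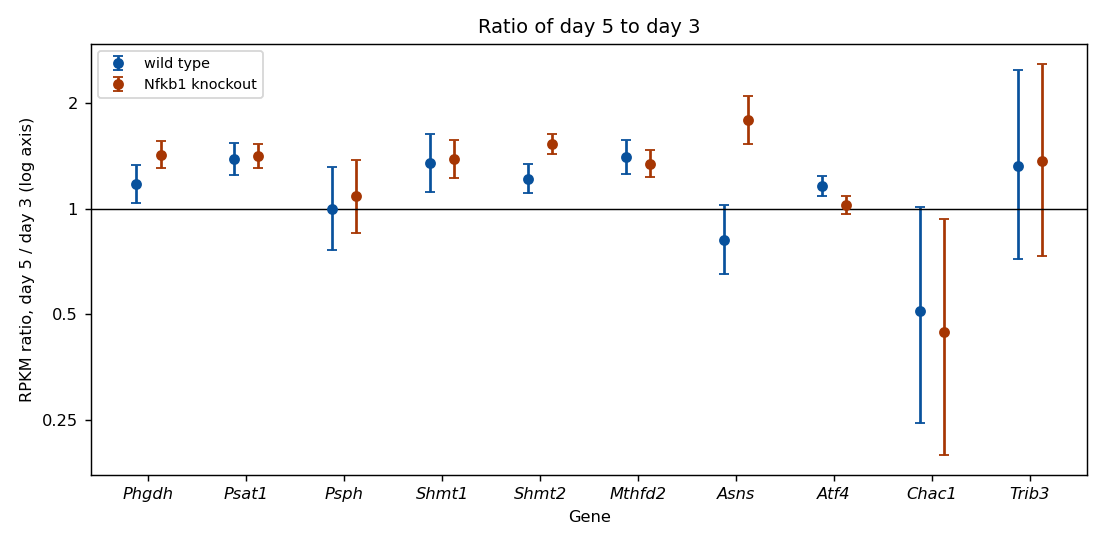
Ratio of RPKM at day 5 to that at day 3 (log axis) for each gene in wild type and in the Nfkb1 knockout, with exact 95% intervals that cover counting error only. Asns lies at 0.815 for wild type but 1.79 for the knockout, and the other enzyme genes lie at or above 1 in both genotypes.

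The genotype difference was not of the same size at the days for some of the genes. For Asns it was larger at day 5 by 1.01, past the size rule (1.0% of all genes were that much higher, 2.63% that much lower), a ratio of the genotype ratios of 2.19 (1.66 to 2.88). With a pseudocount of 5 RPKM it was 0.73 and short of the rule. Smaller shifts whose counting intervals exclude 1 were those of Shmt2, at 1.25 (1.12 to 1.41), and Phgdh, at 1.21 (1.04 to 1.41), both upward, and of Atf4, at 0.885 (0.811 to 0.966), downward. The Atf4 shift was -0.17 on the log2 scale, and -0.03 after the median-ratio rescaling. For Psat1 the value was 1.02 (0.899 to 1.17), for Shmt1 1.03 (0.817 to 1.29) and for Mthfd2 0.959 (0.832 to 1.10), whose sign turns under rescaling. The median of all genes in this comparison was -0.14, and it was -0.01 after rescaling by the median ratio.

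The wider set of genes around these pathways was described from fixed lists, by counts and medians, beside the medians of all genes (0.13 and 0.01). Of all 11786 genes 7847 were above 0 at day 3 and 6040 at day 5, the background for the counts above 0 that follow. Folate one-carbon genes lay above 0 for 16 of 16 measured at day 3 and 15 of 16 at day 5, with medians of 0.38 and 0.47 and 0 past the rule. Mthfd1, the cytosolic three-function enzyme, differed by 0.73 and 0.72, and Mthfd1l, which releases formate in mitochondria, by 0.63 and 0.82. Mthfd2l, a close relative of Mthfd2, was low, at 0.292 and 0.770 RPKM at day 3 and 0.885 and 1.04 RPKM at day 5. Folr2, a folate receptor of macrophages, was lower at day 5 than at day 3 in both genotypes. The differences were -0.51 in wild type (48 and 30 reads) and -1.12 in the knockout (62 and 17 reads). The intervals of its genotype ratio included 1 at both days, from 0.820 to 1.81 and from 0.307 to 1.11. The glycine cleavage gene Gldc stood at the lowest value of 1 read in all libraries. The 12 genes of purine synthesis, which draws on folate carbon, all lay above 0 at each day (medians 0.50 and 0.46). Among 12 measured genes of side reactions of serine, aspartate and glutamine the medians were 0.31 and 0.31, and Cad, which starts pyrimidine synthesis, was at 0.65 and 1.00, short of the rule at day 5 under the median-ratio rescaling. The 20 cytosolic aminoacyl tRNA synthetases, many of which ATF4 is known to regulate, had medians of 0.42 and 0.39, with 20 and 19 above 0 and 0 past the rule. Of 16 measured amino acid transporters 12 and 9 were above 0, with medians of 0.22 and 0.08, shares near those of all genes. Slc7a5, the importer of large neutral amino acids, was past the rule at day 3 at 1.03, though under neither rescaling, and differed by 0.88 at day 5.

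Other genes described as ATF4 targets had medians near 0. Of the 25 measured, 16 were above 0 at day 3 and 11 at day 5, where 7847 and 6040 of all 11786 genes were. Their medians were 0.05, negative under both rescalings, and -0.08. Ddit3, the death-promoting factor CHOP, had 16.8 (wild type) and 14.8 RPKM (knockout) at day 3, then 12.3 and 10.3 RPKM at day 5. Sesn2, an inhibitor of mTORC1, was at 8.10 and 7.32 RPKM at day 3 and 7.41 and 6.97 RPKM at day 5. The intervals of the genotype ratio included 1 at both days for each of them, from 0.723 to 1.08 and 0.663 to 1.07 for Ddit3, and from 0.772 to 1.06 and 0.799 to 1.11 for Sesn2. Atf5, a relative of ATF4, differed by -0.09 at both days, and Cebpg, a partner of ATF4, by 0.03 and -0.24. Slc7a11, the cystine importer, differed by 0.06 and 0.43. Past the rule upward were Nupr1, a stress-induced nuclear protein, at 1.03 and 1.56, and Cebpb, a myeloid C/EBP factor, at 1.22 at day 5, with 0.72 at day 3. Nupr1 at day 3 fell short of the rule under both rescalings. Tmem154 was lower, by -0.40 and -0.85. The 17 genes of eIF2, its kinases and its exchange factor had medians of 0.32 and 0.24 and the 20 genes of protein folding in the endoplasmic reticulum 0.29 and 0.24, with 0 past the rule in either list at either day.

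**Figure D4:**
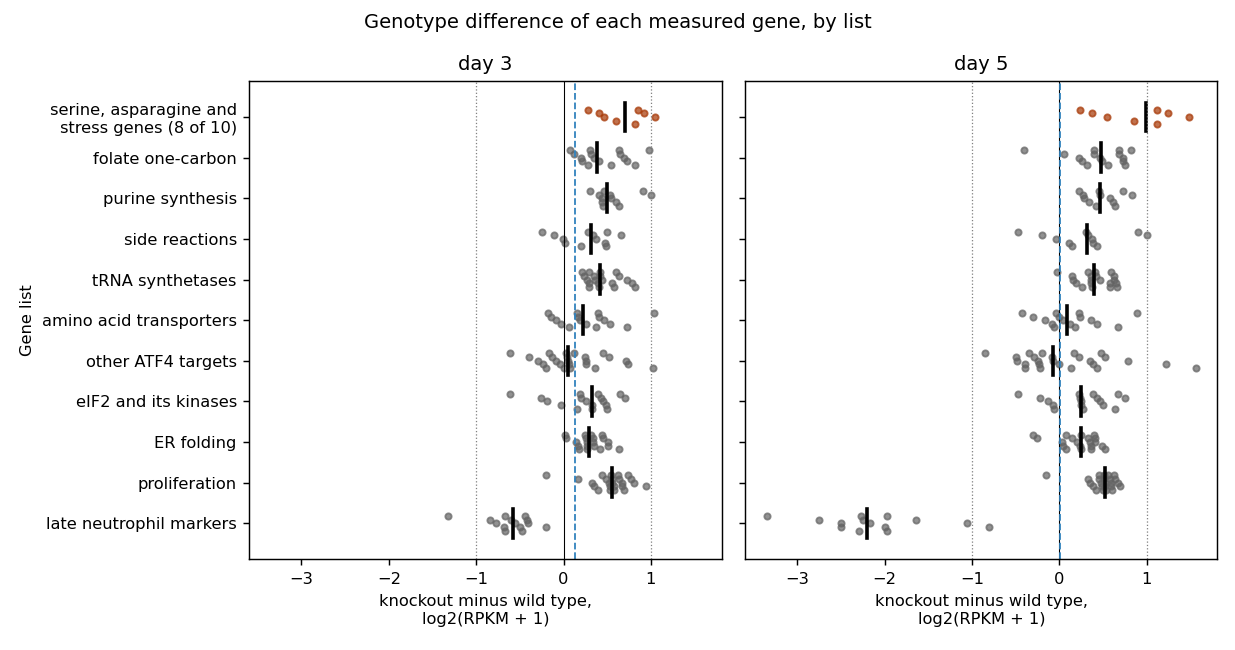
Knockout minus wild type on the log2(RPKM + 1) scale for each measured gene (points) of 11 lists at day 3 and day 5, with the list median (black bar), the median of all genes (dashed line) and the size rule (dotted lines). The serine, asparagine and stress genes have medians of 0.71 and 0.99, the other ATF4 targets 0.05 and -0.08, and the late neutrophil markers -0.58 and -2.20.

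Of 24 proliferation genes 23 were above 0 at each day (all but Mki67 at day 3 and all but Tk1 at day 5), with medians of 0.56 and 0.52 and 0 past the rule, and their summed level was 811 and 1150 RPKM in wild type and knockout at day 3 and 1100 and 1560 RPKM at day 5. Myc, a growth-promoting transcription factor, stood at 21.4 and 35.6 RPKM at day 3, a ratio of 1.66 (1.52 to 1.82), and at 24.8 and 40.4 RPKM at day 5, a ratio of 1.63 (1.5004 to 1.77). Sod2, the gene named in the study's title, had ratios of 2.55 (2.40 to 2.72) and 2.77 (2.59 to 2.96), near those of Shmt1. The part of proliferation in the difference of the enzyme genes was not tested.

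The genes whose profile over the 4 libraries lay nearest to Asns (Euclidean distance of log2(RPKM + 1) centred on each gene's mean, among 8059 genes that average 5 RPKM or more) were Mir6381 (0.144), Psmg1 (0.207), Clybl (0.259), Lyar (0.267) and Mrpl52 (0.315). Mir6381 overlaps an exon of Gbp2 on the opposite strand and strand use is not given, so some of its reads may belong to Gbp2. Psmg1 stood at 12.6 and 17.3 RPKM at day 3 and 11.1 and 26.6 RPKM at day 5, wild type first. Among the 10 genes the nearest to Asns was Phgdh, in place 17 at a distance of 0.383. Nearest to the mean profile of Phgdh, Psat1 and Psph were Nop58 (0.0364), Prmt1 (0.0408), Ddx1 (0.0418), Sdc4 (0.0502) and Trip13 (0.0505), all closer than Mthfd2 in place 220 (0.226), Shmt1 in place 927 (0.385) and Shmt2 in place 1064 (0.405). These are descriptions over 4 libraries.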

How the data were processed

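The table, deposited by the authors, has RPKM values, as its header names them, for each RefSeq accession and library. The submitters' processing notes name HISAT2, SAMtools and mm9, with no versions. The counter, the annotation and any use of strand were not given in the sources used here. Since a gene's RPKM moves in steps of 1 read, totals, lengths and whole reads could be recovered for 26026 genes (tolerance 0.003 reads), up to a common whole factor where no reference length was at hand. No value was 0: genes without reads stand at 1 read, or 1 read was added to each.

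Differences are of log2(RPKM + 1), with a size rule of 1 for genes averaging 1 RPKM or more. Ratio intervals are exact and take reads as independent molecules, which reads without molecular identifiers are not. Tools were Python 3.11.15, scipy 1.17.1 and limma 3.58.1 in R 4.3.3, and the procedures were tested on simulated data. Members and lists were chosen with earlier results of these data known. Named genes were the 10, Nfkb1, Sod2, Myc, up to 4 past the rule per list, some preset ATF4, folate and Tribbles genes, and the 5 nearest profiles. Gldc, which stands outside that rule, was named after its values were seen. Also outside it were Cd74, H2-Aa, H2-Ab1, H2-Eb1, Zbtb46, Lyz2, Mrc1, Cd68, Mki67 and Tk1, named for their values. Some marker genes that the rule picked are not named. Alternatives were other pseudocounts, filters, rescalings and a limma trend. RefSeq sequences are of GRCm38.p6, used for sequence and not for mm9 positions.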

Additional observations from a re-analysis of the deposited data

Results flagged for a closer look

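Asns went opposite ways between the days in the 2 genotypes. It differed by -0.25 on the log2(RPKM + 1) scale in wild type and by 0.77 in the knockout from day 3 to day 5, and this difference was not tested between cultures, since each group is 1 library. The counting interval of the wild-type ratio includes 1, as given above.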

How the results depend on the processing

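Each group is 1 library, so leaving out a replicate was not possible. No analysis paired by replicate number was possible because each group has 1 library and the shared number comes only from accession order. The additive fit given above has day as a term. No result reversed among those with a call. With a pseudocount of 0.1 RPKM the genes past the size rule were 228 higher and 221 lower for knockout against wild type at day 3, 225 and 648 at day 5, 418 and 386 between days in wild type, 152 higher between days in the knockout, and 207 and 610 for the change of the genotype difference. With a pseudocount of 5 RPKM these were 27 and 20, 54 and 106, 58 and 78, 9 and 151, and 30 and 84, and the serine and asparagine genes past the rule were 0 at day 3, 2 at day 5 and 0 for the change. A mean of at least 5 RPKM, which tests fewer genes, gave 70 and 40, 90 and 228, 106 and 154, 28 higher, and 39 and 170. At least 20 reads on average gave 75 and 63 at day 3, 30 higher between days in the knockout and 36 higher for the change. Rescaling by the median ratio gave 70 higher and 156 lower at day 3, beside 115 and 104 as deposited, and 0 of the serine and asparagine genes past the rule there, as did rescaling to the same sum of RPKM (0). limma with an intensity trend called 11 higher and 8 lower. The causes of these shifts were not tested. Depth limits Chac1 and Trib3, with 11 to 28 reads per library.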

Other observations

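Relatives of the low stress genes were also at hand. Trib1 and Trib2, which like Trib3 encode pseudokinases, were more abundant than Trib3. Trib1 stood at 11.5 and 11.9 RPKM in wild type and knockout at day 3 and 6.78 and 6.15 RPKM at day 5, and Trib2 at 2.30 and 2.56 RPKM and at 1.95 and 1.33 RPKM. Of 9 measured genes of glutathione breakdown and synthesis, 5 and 6 were above 0 in the genotype difference at day 3 and day 5, with medians of 0.16 and 0.25 and 0 past the size rule.

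Among 8 measured genes of the Myc network the median genotype difference was -0.06 at day 3 and -0.47 at day 5. Mxd1, an antagonist of MYC for its partner MAX, stood at 73.2 and 48.9 RPKM at day 3 and 34.5 and 11.0 RPKM at day 5, wild type first, a difference of -1.56 at day 5. Mycl was lower by -0.89 and -1.76, and Mxi1 by -0.10 and -0.72.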
